A study of Mus musculus with 6 samples.

Results

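Plasmacytoid dendritic cells (pDCs) made up 91 of the 51633 cells that passed filtering in single-cell RNA sequencing of tumor-bearing mice. A cell was chosen as a pDC when it held at least 2 Siglech UMIs (unique molecular identifiers, each a counted RNA molecule) and at least 1 Bst2 UMI. It could hold no more than 1 Csf1r UMI, 2 UMIs of C1qa, C1qb and C1qc together, and 1 UMI of Xcr1 and Clec9a together, and had to be at 0 for Cd79a and for Cd3d, Cd3e and Cd3g. The control and 2FF libraries gave 9 pDCs each, 2FF plus anti-PD-L1 gave 12, anti-PD-L1 alone 16, 2DG alone 20 and 2DG given with the antibody 25.

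Each library came from 1 female C57BL/6 mouse, 6 to 8 weeks old when KPCA cells, an ovarian cancer line proficient in homologous recombination, were placed in the ovarian bursa. 2FF (2-deoxy-2-fluoro-L-fucose, an inhibitor of fucosylation) was applied to the tumor cells for 3 days before injection and then given by gavage every 2 days. 2DG (2-deoxy-D-glucose, a glucose analog that interferes with glycolysis and N-glycosylation) was injected intraperitoneally every 2 days from day 9. Anti-PD-L1, an antibody to the checkpoint ligand encoded by Cd274, was given at 5 mg/kg 2 times per week for 3 weeks from day 9, alone or with 2DG or with 2FF, and the control mouse received solvent and rat IgG. Mice were killed on day 30. The study's methods describe cells of the tumor immune microenvironment, whereas lymph node is the labelled tissue and mice of young and old age are named in the design text, and these were not reconciled here. With 1 mouse per treatment, differences between treatments cannot be told apart from differences between mice or libraries, and no test was made between treatments.

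pDCs are dendritic cells specialised in sensing viral and self nucleic acids through the endosomal receptors TLR7 and TLR9, and on activation they release large amounts of type I interferon. Their development depends on the transcription factor E2-2, encoded by Tcf4, together with Irf8, Runx2, Bcl11a and Spib. In tumors they are often few, poor in interferon output and weak at presenting antigen, and they can promote tolerance. Siglech encodes a receptor of the Siglec family that signals through the adaptor DAP12. Bst2 encodes tetherin, the antigen of the antibody PDCA-1, and Ccr9 encodes the receptor that guides cells to CCL25.

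E proteins such as E2-2 bind the E-box CANNTG, so short stretches near RefSeq start sites of pDC genes are shown with the letters CACCTG, or CAGGTG on the opposite strand, in capitals. All are from RefSeq on GRCm38.p6 and read 5′ to 3′ on the strand of the gene. They lie at chr7:55768152-55768181 (plus strand), chr9:123767114-123767143 (plus), chr7:44225261-44225290 (plus), chr8:120738422-120738451 (plus) and chr8:71537660-71537689 (minus), in this order. The stretches of Ccr9 and Irf8 precede a RefSeq start that lies inside the span of the gene in GENCODE.
Siglech: gaagacttgggcCACCTGctgtccctagtt
Ccr9: tagaatctgcagCAGGTGgctccccaccct
Klk1: cccacaggagagCAGGTGcaacagggccct
Irf8: tgagaggtgcctCAGGTGgcaccgcacttg
Bst2: gcccacaggcacCAGGTGactggccagcga
The matches began 20, 85, 87, 205 and 205 bases before the start site. Of 28 genes listed as pDC identity genes, 23 had a promoter entry (250 bases before to 50 after the start). CACCTG or CAGGTG was present in 8 of these 23 (34.8%) and in 5252 of all 27025 genes with an entry (19.4%). The E-box CAGCTG was present in 3 of 23 (13.0%) and in 14.7% of all genes, and the RUNX letters TGTGGT or ACCACA in 6 of 23 (26.1%) and in 15.9% of all genes. A match is a description of the letters and not evidence of binding.

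The 91 pDCs held 825147 UMIs in all. The median pDC had 8484 UMIs (805 to 21337) and 3001 genes, against library medians of 6196 to 7732 UMIs for all passing cells. Siglech (chr7:55768178-55778925, plus strand) ranged from 2 to 39 UMIs per pDC with a median of 12, and Bst2 (chr8:71534255-71537456, minus strand) from 1 to 30 with a median of 13. These values chose the cells and are given as a description only. The median Siglech count was 9 in the control and 2FF libraries, 12 in the 2DG plus anti-PD-L1 library, 13 in the 2DG and anti-PD-L1 libraries and 15 in the 2FF plus anti-PD-L1 library. Median Bst2 was 4 UMIs in the control library and 10 to 17.5 in the other 5.

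The label was checked against Ccr9, the marker that the rule did not use, and against the 28 identity genes, which also leave out Siglech and Bst2. Ccr9 (chr9:123678439-123784330, plus strand) had a UMI in 84 of 91 pDCs (92.3%, 95% exact Clopper-Pearson interval 84.8% to 96.9%). In T cells, which should lack the pDC programme, Ccr9 had a UMI in 4.61%, Siglech in 0.125% and Bst2 in 28.5%, at a median of 6181 UMIs per cell. A pDC had a UMI of a median of 23 of the 28 identity genes (7 to 27), against 3 in T cells, 7 in B cells, 6 in macrophages, 7 in type 2 dendritic cells and 5 in mature migratory dendritic cells. Tcf4 and Plac8 were detected in all 91 pDCs, Tspan13 in 90, Runx2 in 89, Irf8 in 86 and Bcl11a in 85. Less often detected were Ly6d in 72, Cox6a2, a muscle-type subunit of cytochrome c oxidase, in 63, Spib in 52, and Klk1, a kallikrein protease, in 51. In the T cell shares, free RNA and the T cells' own expression cannot be told apart. The named label was kept for the 91 cells, although it is less clear for some of them, as given below.

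**Figure D1:**
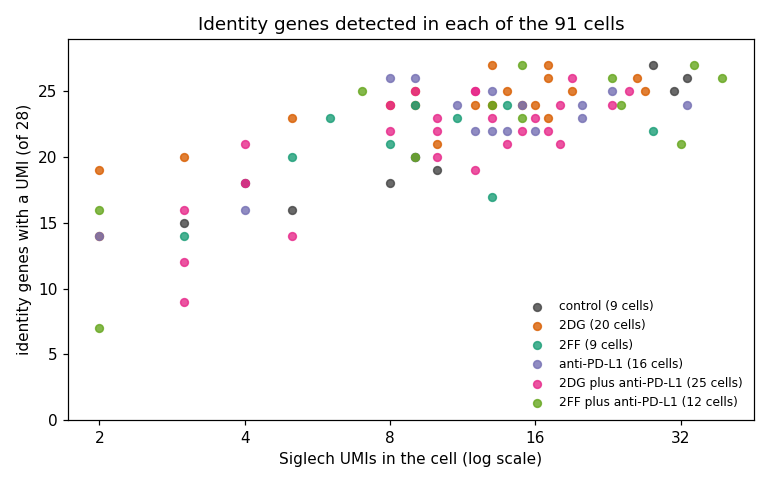
Identity genes detected per cell (of 28, vertical axis) against Siglech UMIs per cell (horizontal axis, log scale), 1 point per pDC coloured by library. The 56 pDCs with 10 or more Siglech UMIs had a median of 24 identity genes, and the 5 with 2 UMIs had 14.

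The cells close to the limit of the rule were less clear. The 5 pDCs with 2 Siglech UMIs had a median of 14 identity genes and the 6 with 3 UMIs had 14.5, whereas the 56 with at least 10 UMIs had 24. All 5 cells with 2 UMIs had Cd209a, a type 2 dendritic cell marker, and none had Cox6a2 or Ly6d. They held 4 and 0 Irf8 UMIs (2DG), 0 (anti-PD-L1), and 26 and 0 (2FF plus anti-PD-L1). The last of these had 7 identity genes, no Runx2 or Ccr9 UMI and 178 Cd74 UMIs. Just outside the rule, 16 cells with 1 Siglech UMI met every other condition and had a median of 9.5 identity genes at 8201 UMIs per cell. In all, 14 pDCs also met the Cd209a limit used for type 2 dendritic cells.

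Signs of other cells were looked for in the pDCs of each library. In the control library, 4 of 9 pDCs held 11 to 34 UMIs of the myeloid lysozyme gene Lyz2, 2 to 8 of Irf8 and no Cox6a2. Lyz2 summed to 1097 CPM there (a gene's UMIs scaled to 1000000 UMIs of the pDCs of that library). It was at 5.04 CPM with 2DG, 10.8 with 2FF, 15.3 with anti-PD-L1, 418 with 2DG plus anti-PD-L1 and 118 with 2FF plus anti-PD-L1. The 8 monocyte markers together were at 3019 CPM in the control pDCs and at 976 to 1846 CPM in the others, with Ly6c2, which pDCs also carry and which is among the identity genes, the most abundant. One pDC of the 2DG plus anti-PD-L1 library held 1444 of the 1456 S100a8 UMIs of all pDCs, with 677 of S100a9 and 105 of Retnlg, so that the 8 neutrophil markers were at 11350 CPM in that library and at 0 to 232 CPM in the other 5. The control library also stood apart as a whole, with 464 T cells and 2158 neutrophils among 9075 cells, against 1911 to 3050 T cells and 128 to 221 neutrophils in the other libraries. The T cell markers were at 23.0 to 90.3 CPM in pDCs with Cd28 the most abundant, the B cell markers at 10.8 to 45.3 CPM with Cd79b the most abundant, and the macrophage markers at 186 to 503 CPM with Cd68 the most abundant. The NK cell markers reached at most 21.7 CPM and the erythroid markers 5.03 CPM. Ms4a1 was at 0 UMIs in every library. The part of these cells in the levels below was not tested, except where values without them are given.

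Among all passing cells, pDCs were 0.0992% in the control library (9 of 9075, 95% exact interval 0.0454% to 0.188%) and 0.0976% with 2FF (9 of 9222, 0.0446% to 0.185%). They were 0.154% with 2FF plus anti-PD-L1 (12 of 7806, 0.0795% to 0.268%) and 0.182% with anti-PD-L1 (16 of 8801, 0.104% to 0.295%). The share was 0.260% with 2DG (20 of 7703, 0.159% to 0.401%), and 2DG given together with anti-PD-L1 had 0.277% (25 of 9026, 0.179% to 0.409%). The 2 libraries with 2DG had the highest shares and the control and 2FF libraries the lowest. The intervals of the 2DG and the control libraries overlapped, those of neighbours in this order overlapped widely, and the intervals cover counting error only. The rule left out many cells with a similar number of identity genes detected, given below, and this moved the shares. Without the limits on Xcr1, Clec9a and the Cd3 genes, an alternative chosen after seeing the data, 11, 39, 23, 33, 38 and 20 cells met the rule (libraries in the order control, then 2DG, then 2FF, then anti-PD-L1, then the combinations of 2DG and of 2FF with the antibody), and the shares were 0.121%, 0.506%, 0.249%, 0.375%, 0.421% and 0.256%. Under that wider rule the control share was lowest and the 2DG share highest, and the intervals of these 2 libraries (0.0605% to 0.217% and 0.360% to 0.692%) did not overlap.

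**Figure D2:**
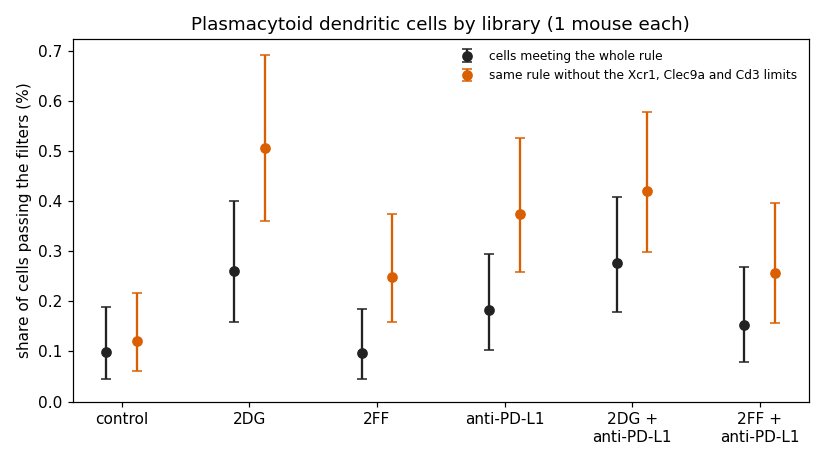
Share of passing cells that met the pDC rule in each library (percent, points with 95% exact Clopper-Pearson intervals) and the share under the wider rule. The control library lies lowest or next to lowest and the 2DG library at or near the top under both rules.

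Of 182 cells with at least 2 Siglech UMIs, 51 were left out only by Xcr1 and Clec9a and 19 only by the Cd3 genes. Both sets had a median of 24 identity genes, above the 23 of the pDCs themselves. In the 51 cells Clec9a, a receptor for dead cells typical of type 1 dendritic cells, ranged from 2 to 21 UMIs with a median of 2, and Xcr1 was present in 1 cell, with 41 UMIs. Among the 91 pDCs, 32 had 1 Clec9a UMI each and none had Xcr1, which the rule limited.

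For the comparison with conventional dendritic cells, 3 other classes were gated in the same libraries: type 2 dendritic cells (568 cells, chosen by Cd209a), type 1 dendritic cells (460 cells, chosen by Xcr1 and Clec9a) and mature migratory dendritic cells (483 cells, chosen by Fscn1 and Ccr7). UMIs were summed per class and library, and each comparison used edgeR's quasi-likelihood test paired within the 4 libraries that held at least 10 pDCs (all but the control and 2FF libraries). A gene was called at a Benjamini-Hochberg adjusted p under 0.05 and at least a 2-fold change, and genes that chose either class were left out. The type 1 gate was mixed: 52 of its 460 cells had at least 2 Siglech UMIs and a median of 24 identity genes, so most folds against it that are printed for single genes are also given without those cells, an alternative chosen after seeing the data.

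pDCs differed from all 3 classes most plainly in their own programme. Of the 28 identity genes, all of which could be tested, 25 were higher and none lower than in type 2 dendritic cells, 26 were higher and none lower than in type 1 dendritic cells, and all 28 were higher than in mature migratory dendritic cells. Among all genes tested, 13.5% were called higher than in type 2 cells (843 of 6263), 12.7% higher than in type 1 cells (703 of 5528) and 19.6% higher than in mature migratory cells (925 of 4713). The median log2 fold of the list was 3.88, 2.91 and 5.61, against -0.02, -0.04 and -0.06 over all genes tested, and was 5.07 in the type 1 comparison without the Siglech-positive cells. In all 3 comparisons, 23 of the 28 were higher, whereas 376 of the 4417 genes tested in all 3 (8.51%) were. The list was made of genes known to mark pDCs, and the cells were chosen by Siglech and Bst2, so the direction checks the label and is not a result about these cells. With all 6 libraries, 26 of 28, 26 of 28 and 27 of 27 were higher, and without the pDCs that met another gate or held 20 or more S100a8 and S100a9 UMIs 25, 26 and 28 of 28 were, both alternatives chosen after seeing the data.

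Tcf4, the gene of E2-2, was at 4645 CPM in the pDCs of the control library, 4977 with 2DG, 5030 with 2FF, 5106 with anti-PD-L1, 4718 with 2DG plus anti-PD-L1 and 5813 with 2FF plus anti-PD-L1. In type 2 dendritic cells of the same libraries it was at 242, 382, 535, 314, 382 and 348 CPM. The pDC values lay close together and did not overlap with those of any other dendritic cell class, and the log2 fold was 3.74 over type 2 cells (SE 0.116, edgeR adjusted p = 4.72e-11), 3.11 over type 1 cells (5.49 without the Siglech-positive cells) and 3.45 over mature migratory cells, each higher in 4 of 4 libraries.

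Ly6d, a surface protein of B and pDC progenitors (chr15:74762056-74763620, minus strand), was at 826, 715, 477, 1242, 956 and 674 CPM in pDCs in the same order of libraries. It was at 0 UMIs in mature migratory cells of every library and at no more than 1.21 CPM in type 2 cells. The log2 fold over type 2 cells was 10.77 (SE 0.342, edgeR adjusted p = 4.94e-11), the highest fold of that comparison among the genes named, and over mature migratory cells Ly6d was at least 863-fold higher, with the 0 set to 3 UMIs over the group. Cox6a2 (chr7:128205435-128206387, minus strand) was at 516, 806, 271, 636, 498 and 509 CPM in pDCs, with 1 UMI in all in each of the type 2 and mature migratory classes of the libraries tested. Its log2 fold over type 2 cells was 10.19 (SE 0.375, edgeR adjusted p = 2.08e-10). Neither gene overlapped between pDCs and those classes in any library. Both are among the identity genes and passed the filter on low counts only through their pDC level, so they had to be higher. Their folds and p-values check the label and are a description only.

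Ccr9 was at 1239 CPM in the control pDCs, 861 with 2DG, 575 with 2FF, 1004 with anti-PD-L1, 1112 with 2DG plus anti-PD-L1 and 642 with 2FF plus anti-PD-L1. Type 2 cells had between 0 and 14.5 CPM, and the log2 fold was 7.44 (SE 0.251, edgeR adjusted p = 7.47e-11). Both 2FF libraries had the lowest Ccr9 levels, at counts of 53 and 82 UMIs, and whether this is the treatment cannot be told with 1 mouse each. Irf8, which both pDCs and type 1 dendritic cells need, was at 1149 to 2668 CPM in pDCs. It was higher than in type 2 cells (log2 fold 3.43, SE 0.144, edgeR adjusted p = 6.57e-10) and mature migratory cells (1.13). Over mature migratory cells it gave 0.99 without the 2FF plus anti-PD-L1 library and 0.93 with no filter on low counts. Against type 1 cells the log2 fold of Irf8 was 0.11 (SE 0.113, edgeR adjusted p = 0.468, and 0.16 without the Siglech-positive cells).

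**Figure D3:**
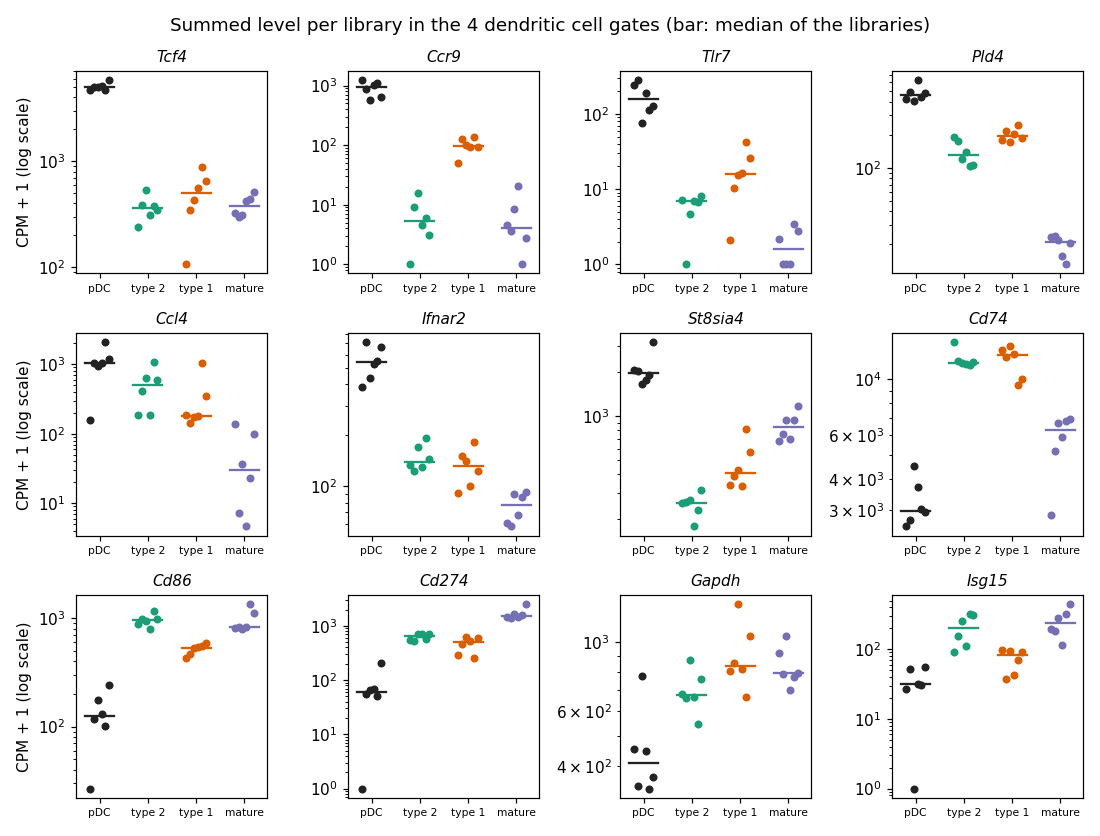
Level in each library (CPM, log axis) of chosen genes in pDCs and in the 3 other dendritic cell classes, 1 point per library with the median as a bar and 1 CPM added. Tcf4, Ccr9 and Tlr7 are higher in pDCs in every library than in any other class, and Cd74 and Cd86 are lower in pDCs than in type 2 cells.

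Among the genes with the highest folds over type 2 cells were also Grm8, a metabotropic glutamate receptor (log2 fold 10.27), Dntt (9.23), Klk1 (9.19), the progestin receptor family gene Paqr5 (8.74), Mctp2 (8.58), the calcium channel gene Cacna1e (8.52), Zc3h12b (8.45) and the endothelial cadherin gene Cdh5 (8.43). Dntt and Cdh5 were at 0 UMIs in the type 2 cells tested and so were at least 187-fold and at least 96.7-fold higher. Over mature migratory cells Klk1, Cmah, Paqr5, Smim5 and Cd300c, all at 0 there, were at least 305-, 232-, 213-, 182- and 155-fold higher. Over type 1 cells the highest were Timp2 (3.71), Tbxa2r (3.59), Cd8b1 (3.58), Jakmip1 (3.51), Gm21762 (3.46), Dntt (3.45), Ceacam1 (3.45), Ly6d (3.44), Sh3bgr (3.40) and Zc3h12b (3.40), an order that comes from a gate holding Siglech-positive cells. Without those cells Ly6d gave 12.01, Cox6a2 11.62, Dntt 9.52, Klk1 9.52, Timp2 8.39, Gm21762 8.37, Sh3bgr 7.88, Cd8b1 7.38, Zc3h12b 6.96, Jakmip1 6.64, Ceacam1 5.59 and Tbxa2r 4.42. At the other end, Batf3, a factor that type 1 dendritic cells need, was at 0 pDC UMIs in the libraries tested. It was at least 21.9-fold lower than in type 2, 39.8-fold lower than in type 1 and 65.3-fold lower than in mature migratory cells. Ccl17, Ffar2, Nectin1 and Tldc2 were at 0 in pDCs and at least 50.1-, 23.8-, 16.5- and 11.7-fold lower than in type 2 cells. Ccser1, Itgae, Hepacam2 and Lima1 were at least 113-, 82.2-, 30.1- and 35.9-fold lower than in type 1 cells. Ccl22, a chemokine of mature dendritic cells, was at 0 and at least 302.5-fold lower than in mature migratory cells, Mreg at least 241-fold, Ccl17 at least 162-fold, Nck2 at least 84.4-fold and Il12b at least 61.9-fold lower. A gene at 0 UMIs in either class of a comparison passed the filter on low counts only through the other class and had to differ. These bounds hold for the 4 libraries tested. In the others Mreg had 17 UMIs in the 2FF pDCs (184 CPM) and 1 in the control pDCs. Ccser1 had 2 UMIs in the 2FF pDCs (21.7 CPM).

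Of 15 genes shared with B lineage cells, 6 passed the filter on low counts in each comparison. A gene that passed only through its level in pDCs had to differ, so the counts are a description, beside 13.5%, 12.7% and 19.6% of all genes higher in the order of the counts. Of those tested, 6 were higher than in type 2 cells, 6 higher than in type 1 cells and 5 higher than in mature migratory cells, with none lower. Of these, Blnk, Dntt, Ighm, Iglc3 and Ly6d were higher in all 3. Blnk, the adaptor of the B cell receptor, was at 813, 932, 1496, 1027, 1755 and 1888 CPM in pDCs in the order used above, and at 7.19 to 28.9 CPM in type 2 cells (log2 fold 6.02, SE 0.244, edgeR adjusted p = 5.8e-10). Ighm, the constant region of IgM, was at 466 to 851 CPM in pDCs and 40.2 to 69.5 CPM in type 2 cells (log2 fold 3.48, SE 0.176, edgeR adjusted p = 4.04e-09). Dntt, the DNA polymerase that adds bases at V(D)J joins, was at 78.3 to 215 CPM in pDCs and at 0 in type 2 and mature migratory cells. Rag1 and Ms4a1 were at 0 pDC UMIs in every library, and B cells had Dntt at 0.0727 CPM, Ly6d at 742 CPM and Blnk at 708 CPM. The 8 B cell markers were at no more than 45.3 CPM in pDCs, as given above.

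The machinery of nucleic acid sensing differed by gene. Of 23 sensing genes measured, 19 were tested against type 2 cells, with 4 higher and 7 lower (13.5% of all genes tested were higher and 14.4% lower, 904 of 6263), and 15 against mature migratory cells, with 5 higher and 5 lower (19.6% of all were higher and 21.8% lower, 1026 of 4713). Against type 1 cells 4 of 17 were higher and 2 lower (12.7% of all were higher and 13.0% lower, 719 of 5528). Tlr7, the receptor for single-stranded RNA, was at 245 CPM in the control pDCs, 282 with 2DG, 75.9 with 2FF, 192 with anti-PD-L1, 111 with 2DG plus anti-PD-L1 and 125 with 2FF plus anti-PD-L1. Type 2 cells reached at most 7.22 CPM, and the groups did not overlap (log2 fold 4.95, SE 0.463, edgeR adjusted p = 1.36e-06). Pld4, an endosomal nuclease (log2 fold 1.87 over type 2 cells), and Slc15a4, a lysosomal transporter needed for TLR7 and TLR9 signalling, were higher in all 3 comparisons, although Slc15a4 gave 0.99 over mature migratory cells with no filter on low counts. The cytosolic RNA sensor Ifih1 (-4.14 against type 2 cells, SE 0.432, edgeR adjusted p = 3.52e-06) and Irf5 (-1.63) were lower in all 3. Unc93b1, which carries the receptors to endosomes, was higher than in type 2 (1.13, and 0.95 with all 6 libraries) and mature migratory cells (2.32), and gave 0.58 against type 1 cells (0.68 without the Siglech-positive cells), under the 2-fold limit. Irf7, the main inducer of interferon genes in pDCs, was at 54.2 to 115 CPM and gave -0.10 against type 2 cells (SE 0.251, edgeR adjusted p = 0.797). It was higher than in mature migratory cells (log2 fold 2.40, SE 0.413, edgeR adjusted p = 0.000308) and than in type 1 cells (1.05, SE 0.278, edgeR adjusted p = 0.00796, and 1.31 without the Siglech-positive cells), in 4 of 4 libraries each. The type 1 call of Irf7 was lost with all 6 libraries (0.93), with no filter on low counts (0.87), with simulated doublets removed (0.89) and without the 2DG (0.98) or the anti-PD-L1 library (0.86). Tlr9 had 5 UMIs in all 91 pDCs, which is 6.06 CPM.

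Interferon transcripts were all but undetectable at this depth. Of 20 interferon genes measured, including Ifnb1 and the Ifna genes, 19 had no UMI in any pDC, and 1 UMI of Ifnk was found in the 2DG plus anti-PD-L1 library. In the 825147 pDC UMIs, a count of 0 allows a level of up to 3.64 CPM. The interferon receptor genes Ifnar1 and Ifnar2 were higher in pDCs in all 3 comparisons. Against type 1 cells Ifnar1 gave 0.95 without the 2FF plus anti-PD-L1 library and 0.88 with no filter on low counts, both under 2-fold. Ifnar2 was at 387, 710, 434, 529, 548 and 666 CPM in pDCs and at 122 to 192 CPM in type 2 cells (log2 fold 1.95, SE 0.19, edgeR adjusted p = 1.88e-06). Of the interferon-stimulated genes that passed the filter on low counts, more were lower than higher against type 2 and mature migratory cells. A gene that passed it only through its level in the other class had to come out lower. Counts of lower genes, here and in the other lists, are therefore a description. Of the 28 type I genes measured, 22 could be tested against type 2 cells, where 13 were lower and none higher with a median log2 fold of -1.47, and 7 of 13 were lower and 2 higher against mature migratory cells. Against type 1 cells 3 of 12 were lower and 2 higher, and without the 2DG plus anti-PD-L1 library 3 of 15 were lower and 4 higher. Isg15, a ubiquitin-like effector, was at 25.8, 50.4, 0, 30.7, 30.2 and 54.8 CPM in pDCs, below the 91.3 to 320 CPM of type 2 cells in every library (log2 fold -2.51, SE 0.301, edgeR adjusted p = 1.33e-05). Against type 1 cells it gave -0.49 (SE 0.327, edgeR adjusted p = 0.268, and -0.47 without the Siglech-positive cells). Slfn5 and Zbp1, a Z-form nucleic acid sensor, were lower in all 3 comparisons, as were the interferon-gamma genes Ciita, Cxcl9, Gbp2 and Socs1. Slfn5 gave -0.92 against mature migratory cells with all 6 libraries, under the 2-fold limit. Gbp2, a guanylate-binding protein, lost its call against type 1 cells without the 2DG library (-1.11), the anti-PD-L1 library (-0.94) or the 2FF plus anti-PD-L1 library (-1.41). Among genes called higher, Ifi27l2a gave 1.91 over type 1 cells (2.33 without the Siglech-positive cells), 1.22 over mature migratory cells (0.97 without the anti-PD-L1 library) and -0.95 against type 2 cells. Trim30a, the most abundant type I gene with 350 UMIs, gave 1.46 over mature migratory, 0.76 over type 1 (0.92 without the Siglech-positive cells) and 0.02 over type 2 cells. Of the interferon-gamma genes, 10 of 16 were lower and none higher than in type 2 cells, 6 of 12 lower and 1 higher than in type 1 cells, and 7 of 13 lower and 1 higher than in mature migratory cells. Among all genes tested, 14.4% were lower and 13.5% higher than in type 2 cells, 13.0% and 12.7% against type 1 cells and 21.8% and 19.6% against mature migratory cells. Of 4417 genes tested in all 3, 5.39% were lower in each (238).

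RNA of MHC class II presentation genes was lower as a group. Of 12 genes, 10 were lower and none higher than in type 2 cells (median log2 fold -2.13) and 9 were lower and none higher than in type 1 cells (-1.86). Against mature migratory cells 7 of 11 were lower and 2 higher (-1.44). The 2 higher were H2-DMb1 (1.30) and H2-DMa (1.06, and 0.87 with at least 3 Siglech UMIs). Cd74, the invariant chain, was at 2581 CPM in the control pDCs, 2735 with 2DG, 4488 with 2FF, 3726 with anti-PD-L1, 3018 with 2DG plus anti-PD-L1 and 2953 with 2FF plus anti-PD-L1. In the 2FF library 1 cell held 271 of the 414 Cd74 UMIs, in the control 101 of 200 and with 2FF plus anti-PD-L1 178 of 377, and without its highest cell each library was at 1978, 1645 and 1707 CPM, so that the 2FF library being the highest rests on 1 cell. Every type 2 value lay above these, at 11360 to 14060 CPM (log2 fold -2.02, SE 0.0917, edgeR adjusted p = 1.49e-09). H2-Ab1, the beta chain of I-A, was at 465 to 991 CPM in pDCs and 4939 to 6112 CPM in type 2 cells (log2 fold -2.70, SE 0.115, edgeR adjusted p = 7.79e-10). The pDC level of Cd74 was above the 467 CPM of T cells in every library. With all 6 libraries Cd74 gave -0.95 against mature migratory cells, under the 2-fold limit. Of 11 MHC class I genes, 1 was higher and 1 lower than in type 2 cells, none higher and 3 lower than in type 1 cells, and 2 higher and 3 lower than in mature migratory cells. Over all genes tested the shares were 13.5% and 14.4%, 12.7% and 13.0%, and 19.6% and 21.8%, so most of these counts lie near the background. The peptide transporter gene Tap2 was lower in all 3, but its call against type 2 cells (log2 fold -1.04) was near the limit. Tap2 lost it without the 2DG plus anti-PD-L1 library (-0.83), with at least 3 Siglech UMIs (-0.96) and with simulated doublets removed (-0.96). Without the pDCs that met another gate or held S100a8 and S100a9 the fold was -0.93, also under the limit. The call was also lost without the library block (-1.07) and with DESeq2 (-1.04), where the fold stayed past 2-fold.

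Most costimulatory and checkpoint genes tested were lower in pDCs than in the other classes, including the target of the antibody. Of 12 genes of this list tested against type 2 cells, 8 were lower and 1 higher (median log2 fold -2.94), against type 1 cells 6 of 10 were lower and 2 higher, and against mature migratory cells 8 of 12 were lower and 3 higher. The shares of all genes were 14.4% lower and 13.5% higher, 13.0% and 12.7%, and 21.8% and 19.6% in the same order, so the counts of higher genes lie near the background. Cd274, which encodes PD-L1, was at 0 CPM in the control pDCs, 55.4 with 2DG, 65.1 with 2FF, 69.0 with anti-PD-L1, 50.3 with 2DG plus anti-PD-L1 and 204 with 2FF plus anti-PD-L1. The 0 in the control library allows up to 38.7 CPM. Type 2 cells had 534 to 722 CPM, T cells 168 CPM on average and mature migratory cells 1395 to 2496 CPM, so that pDCs were below each of the 3 dendritic cell classes in every library (log2 fold -2.97 against type 2, SE 0.256, edgeR adjusted p = 5.97e-07). Cd86 was at 25.8, 116, 174, 130, 101 and 243 CPM in pDCs and 792 to 1170 CPM in type 2 cells (log2 fold -2.91, SE 0.216, edgeR adjusted p = 1.47e-07). Cd80, Cd40 and Pdcd1lg2, the gene of PD-L2, were also lower in all 3 comparisons. Lag3, an inhibitory receptor that binds MHC class II, went the other way, at 90.3, 151, 163, 153, 101 and 149 CPM in pDCs against 3.09 to 21.1 CPM in type 2 cells (log2 fold 3.63, SE 0.36, edgeR adjusted p = 2.18e-06). T cells had 221 CPM of Lag3. Pdcd1 and Ido1 were at 0 pDC UMIs.

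**Figure D4:**
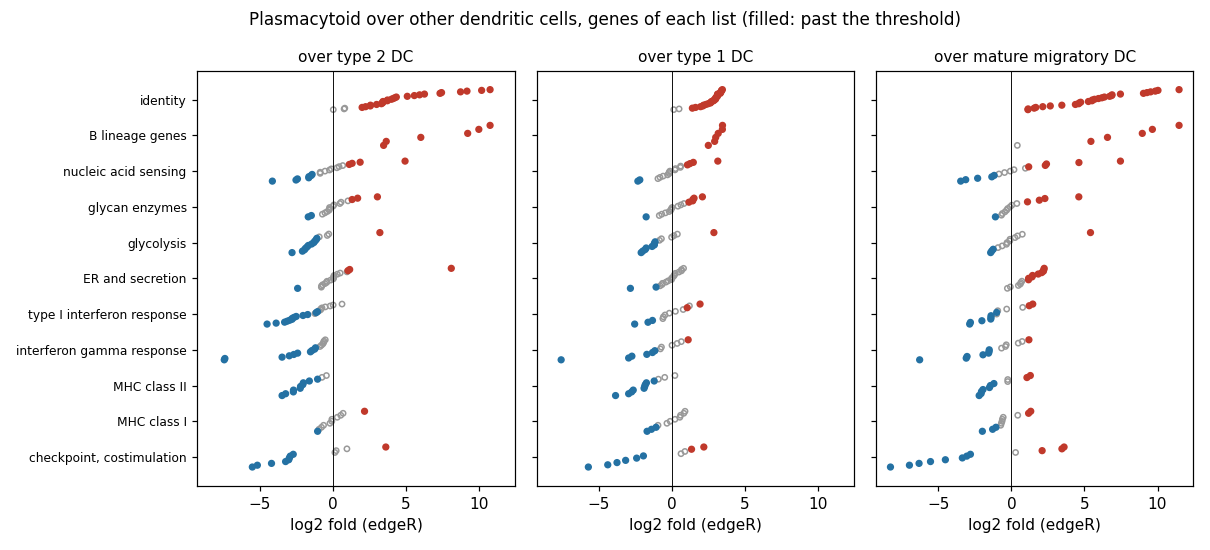
Log2 folds of pDCs over type 2, type 1 and mature migratory dendritic cells (horizontal axis) for the genes of each list, 1 point per gene and filled where the gene was called. Nearly all identity and B lineage genes lie to the right of 0, and most MHC class II and checkpoint genes to the left.

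Among chemokines and their receptors, Ccr9, Cxcr4, the sphingosine phosphate receptor S1pr4 and Ccl4 were higher in pDCs in all 3 comparisons, and Cxcl9 and Cxcl16 lower. Of the genes of this list tested, 4 of 14 were higher and 7 lower than in type 2 cells, 5 of 11 higher and 3 lower than in type 1 cells, and 6 of 10 higher and 4 lower than in mature migratory cells. For all genes the shares higher and lower were 13.5% and 14.4%, 12.7% and 13.0%, and 19.6% and 21.8% in the same order. Ccl4, an inflammatory chemokine, was at 155 CPM in the control pDCs, 1043 with 2DG, 943 with 2FF, 1058 with anti-PD-L1, 2077 with 2DG plus anti-PD-L1 and 1183 with 2FF plus anti-PD-L1. The control library was lowest and the 2DG plus anti-PD-L1 library highest, and within each of the 4 libraries tested pDCs were above type 2 cells (log2 fold 1.30, SE 0.211, edgeR adjusted p = 0.000205). In the control library, which the test left out, the levels were 155 CPM in pDCs and 187 CPM in type 2 cells. The fold fell under the 2-fold limit with all 6 libraries (0.99) and without the anti-PD-L1 library (0.96). T cells had 479 CPM of Ccl4 in the control library, also the lowest of the 6, and 866 to 1829 CPM in the others, and the part of free RNA in the pDC level was not tested.

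Genes related to the treatments were examined next, since 2FF and 2DG act on glycans and 2DG on glycolysis. Of 28 glycan enzyme and transporter genes measured, 16 could be tested against type 2 cells, with 3 higher and 2 lower, 5 of 16 were higher and 1 lower than in type 1 cells, and 4 of 13 higher and 1 lower than in mature migratory cells. Over all genes tested, 13.5% were higher and 14.4% lower than in type 2 cells, 12.7% and 13.0% for type 1 cells, and 19.6% and 21.8% for mature migratory cells. Mgat1 and Mgat5, which build N-glycan branches, and St8sia4, a polysialyltransferase, were higher in all 3, although St8sia4 gave 0.90 over mature migratory cells with no filter on low counts. St8sia4 was at 2065 CPM in the control pDCs, 2020 with 2DG, 1648 with 2FF, 1748 with anti-PD-L1, 1886 with 2DG plus anti-PD-L1 and 3181 with 2FF plus anti-PD-L1, all above the 176 to 312 CPM of type 2 cells (log2 fold 3.05, SE 0.127, edgeR adjusted p = 6.57e-10). Fut8, the enzyme of core fucose, had 74 UMIs in all pDCs (89.7 CPM, 47.0 to 168 across libraries). Glycolytic genes were lower than in type 2 cells for 11 of 15 tested with 1 higher, lower than in type 1 cells for 8 of 14 with 1 higher, and lower than in mature migratory cells for 3 of 13 with 1 higher (1 of 13 lower without the 2DG library), the last near the 21.8% of all genes. Pgk1 and Tpi1 were lower in all 3, and neither kept its call against mature migratory cells without the 2DG library (-0.92 and -1.08). Slc2a3, the glucose transporter GLUT3, was higher in all 3 (log2 fold 3.22 over type 2 cells, SE 0.422, edgeR adjusted p = 2.92e-05). Gapdh was at 452, 343, 781, 445, 337 and 368 CPM in pDCs, with 2FF the highest library. Secretory pathway genes were higher than in mature migratory cells for 9 of 15 with none lower (median log2 fold 1.18), beside 19.6% of all genes. Against type 2 cells 3 of 18 were higher and 1 lower, and against type 1 cells none of 17 was higher and 2 lower, of which 3 of 18 and 2 of 17 lie near the shares of all genes given above.

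Other receptors of the pDC surface and cytokine genes were tested too. Beside them, 13.5% of all genes were higher and 14.4% lower than in type 2 cells, 12.7% and 13.0% against type 1 cells, and 19.6% and 21.8% against mature migratory cells. Of the receptor genes, 5 of 8 were higher and 1 lower than in type 2 cells. Against type 1 cells 6 of 8 were higher, and against mature migratory cells 7 of 7. Klra17, Lair1, Ptprs and Cd300c were higher in all 3. They are also among the identity genes, so their direction checks the label and is not a result about these cells. Cd300c, at 0 UMIs in mature migratory cells, passed the filter there only through its pDC level and had to be higher. Of the cytokine and cytokine receptor genes, 4 of 9 were higher and 2 lower than in type 2 cells, 3 of 8 higher and 2 lower than in type 1 cells, and 3 of 11 higher and 3 lower than in mature migratory cells, the last near the shares of all genes, with Il1b lower in all 3. Of 20 stress and immediate early genes 10 were lower and 1 higher than in type 2 cells, 2 lower and 2 higher than in type 1 cells, and 3 of 19 lower and 5 higher than in mature migratory cells, the last 2 comparisons near the shares of all genes. Pecam1, an adhesion molecule listed as a stromal marker, was higher in all 3, and the other 5 stromal markers measured were at 0.

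Mki67 had a UMI in 5 of 91 pDCs, and 12 cell cycle genes together had 65 UMIs in pDCs. Since these counts are sparse and no background share of cells with such UMIs was worked out, the share of dividing cells was not estimated. Of the cell cycle genes tested, 4 of 5 were lower than in type 1 cells, 1 of 2 lower than in type 2 cells and 0 of 1 lower than in mature migratory cells, with none higher. Mki67 gave -4.29 against type 1 cells (-4.41 without the Siglech-positive cells) and -2.18 against type 2 cells. A gene that passed the filter only through the other class had to be lower. Of 16 genes linked to transitional dendritic cells, which stand between pDCs and type 2 cells, Axl had 1 UMI and Siglec1 none in all pDCs. Of those tested, 2 of 13 were higher and 8 lower than in type 2 cells (13.5% and 14.4% of all genes), 2 of 10 higher and 4 lower than in type 1 cells (12.7% and 13.0%), and 4 of 10 higher and 5 lower than in mature migratory cells (19.6% and 21.8%). Of the 8 tested in all 3 comparisons, Cd8a was higher and Batf3, Id2 and Zbtb46 lower in each.

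Within pDCs, treatments could be set side by side across genes only for 2DG plus anti-PD-L1 over 2DG, since the other libraries held fewer than 20 pDCs. This is the contrast of the antibody on top of 2DG, with 25 and 20 cells from 1 mouse each, and it has no replicate check. Across the 1599 genes that reached 50 UMIs summed over the pair, 61 (3.81%) were past 2-fold up and 29 (1.81%) past 2-fold down, on the scale of log2(CPM + 5), with a median log2 ratio of 0.04. Identity genes were level, with none of 24 past 2-fold and a median of -0.13, and so were MHC class II genes, with none of 7 and a median of 0.35. Of 15 stress and immediate early genes, 5 were past 2-fold up and none down, with a median of 0.80. Hspa1a, a heat shock gene of the list with 2 UMIs (10.1 CPM) with the combination and 42 (212 CPM) with 2DG, was under the 50 UMIs and is not among the 15.

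Egr1, an immediate early transcription factor, had 66 UMIs in 9 of the 25 cells with the combination and 6 UMIs in 1 of the 20 cells with 2DG (log2 ratio 3.26, 95% counting interval of the CPM ratio 2.26 to 4.96). Junb was at 589 and 191 CPM (log2 ratio 1.60), Nfkbia, the inhibitor of NF-kB, at 589 and 207 CPM (1.49) and Ier2 at 312 and 70.5 CPM (2.07). The same genes were higher in other cells of the combination library: the log2 ratio of Junb was 1.04 in T cells, 0.82 in type 2 dendritic cells and 0.80 in macrophages, and that of Egr1 was 0.56, 0.73 and 1.20. Gm42418, a gene that overlaps ribosomal RNA sequence, was lowest, at 12190 and 55760 CPM (log2 ratio -2.19), and it was lower in T cells (-1.34), type 2 dendritic cells (-1.50) and macrophages (-1.09) as well. The direction of Egr1, Junb and Gm42418 was thus the same in these classes outside pDCs.

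Tlr7 was past 2-fold down in pDCs, with 22 UMIs (111 CPM) in 13 of 25 cells with the combination and 56 UMIs (282 CPM) in 15 of 20 cells with 2DG (log2 ratio -1.31, interval -2.13 to -0.62). In the other libraries pDCs had Tlr7 at 75.9 to 245 CPM, so the 2DG value lay above that range and the other within it. Other genes past 2-fold down were Elovl5, a fatty acid elongase (-1.86), Ccnd2, cyclin D2 (-1.76), Gpi1, an enzyme of glycolysis (-1.31), and Ccr2 (-1.04), each on fewer than 50 UMIs in either library. Some of the highest ratios rested on 1 cell. Sgms2, a sphingomyelin synthase (5.73), had 103 of its 105 UMIs in 1 cell, Syne1 (2.41) 40 of 47 and Lyz2 (5.40) 73 of 83, and S100a8 (8.91) had all 1444 in the cell described above. Without the pDCs that met another gate or held 20 or more S100a8 and S100a9 UMIs, the S100a8 ratio was -1.80, 31 genes were past 2-fold up and 27 down of 1146.

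**Figure D5:**
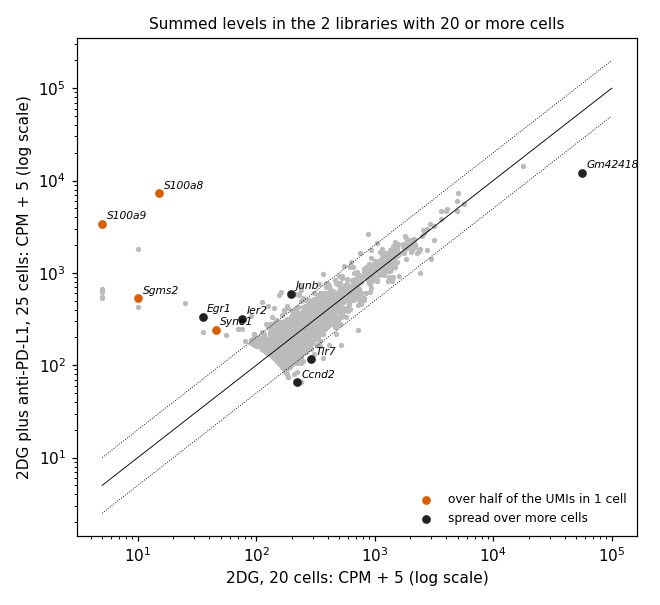
Level of each of 1599 genes (CPM + 5, log axes) in pDCs of the combination library (vertical) against those of the 2DG library (horizontal), with equality as a full line and 2-fold as dotted lines. Labelled genes above the upper dotted line include Egr1 and Junb, those below the lower one Gm42418, Tlr7 and Ccnd2, and orange points had most of their UMIs in 1 cell.

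The heat shock gene Hspa1a differed widely between pDC libraries, with 42 UMIs in the control (542 CPM), 42 with 2DG (212 CPM), 8 with 2FF (86.7 CPM), 5 with anti-PD-L1 (38.3 CPM), 2 with 2DG plus anti-PD-L1 (10.1 CPM) and 2 with 2FF plus anti-PD-L1 (15.7 CPM). The values rest on few UMIs, the counting intervals of the 2FF (37.4 to 171 CPM) and anti-PD-L1 (12.4 to 89.5 CPM) libraries overlap, and each library stands for 1 mouse. In T cells Hspa1a was at 19.2 CPM with 2DG plus anti-PD-L1 and 133 CPM with 2DG (log2 ratio -2.51), so the gene moved in the same direction outside pDCs. MHC class II genes summed to 5832 CPM in the control pDCs, 6231 with 2DG, 10430 with 2FF, 8227 with anti-PD-L1, 7600 with 2DG plus anti-PD-L1 and 7834 with 2FF plus anti-PD-L1. The 2FF library was highest, but 1 of its 9 cells, without Cd209a, held 626 of the 962 UMIs. Without the highest cell of each library, an alternative chosen after seeing the data, the sums were 4220, 5511, 4647, 7395, 6368 and 4682 CPM in the same order, and the anti-PD-L1 library was highest. The identity genes summed to 20230 to 24380 CPM, a narrow range across the 6 libraries. Rsad2, an interferon-stimulated gene, had 19 of its 23 pDC UMIs in the 2DG library.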

How the data were processed

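The authors deposited raw UMI counts for 32285 genes in 57078 barcodes of 6 libraries. The matrix header names Cell Ranger 7.0.0, and the submitters' processing notes list Cell Ranger 3.1.0 and mm10. Here cells with at least 250 genes and at most 5% mitochondrial UMIs were kept. Library totals were 61859753 to 73885214 UMIs, and their number limits precision. Intervals and floors (3 counts) cover counting error only. Members, gene lists and tests were chosen with earlier results of these data known. Counts were summed per class and library (Python 3.11.15, numpy 2.4.6, scipy 1.17.1, pandas 2.3.3, scikit-learn 1.9.0, matplotlib 3.10.9) and tested with edgeR 4.0.16 in R 4.3.3 (TMM, filterByExpr, the library as a block, since the classes of a library come from 1 mouse), with p-values adjusted by Benjamini-Hochberg over all genes tested. The script was tested on data simulated for the type 2 comparison. It called 18% of 100 genes changed by a log2 fold of 1 and 74% of 100 changed by a log2 fold of 2, with 4 false calls among 6088 genes tested. A gene that was not called can therefore still differ. Ratios between treatments used CPM + 5 and at least 50 UMIs, without a test.

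Named were the rule genes, list genes, the 10 highest and 5 lowest log2 folds per dendritic cell comparison that had 1 direction in every library, and the 3 highest and 3 lowest ratios, leaving out mitochondrial, ribosomal, immunoglobulin, T cell receptor, haemoglobin, Xist and rule genes. Genes whose level was under 20% of that in another gated class were also left out of the higher genes and the ratios. Simulated doublets marked 3573 cells, of which 2 were pDCs, and were kept but removed in an alternative. Between 16 and 34 barcodes were shared by any 2 of the libraries, and none was that of a pDC in both, although 2 pDC barcodes were shared between the control and 2DG libraries and 2 between 2DG and 2FF plus anti-PD-L1, where the barcode of the other library was not a pDC. All 439 looked-up genes were matched to GENCODE M21 (GRCm38) by identifier. Alternatives were RLE factors, DESeq2 (pydeseq2 0.5.4), no filter, no library block, at least 3 Siglech UMIs, leaving out each library, a 10% mitochondrial limit, cells thinned to 2000 UMIs, cells with Ptprc as denominator, a pseudocount of 20, at least 20 UMIs, and centred or TMM-scaled ratios. Genes past 2-fold in all 3 anti-PD-L1 pairs were not analysed, since only 1 pair of libraries held 20 pDCs each.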

Additional observations from a re-analysis of the deposited data

Results flagged for a closer look

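Among cells with 2 or more Siglech UMIs, 51 were left out of the pDCs only by Xcr1 and Clec9a, 2 in the control, 14 with 2DG, 8 with 2FF, 11 with anti-PD-L1, 10 with 2DG plus anti-PD-L1 and 6 with 2FF plus anti-PD-L1. A further 19 were left out only by the Cd3 genes, 0, 4, 6, 5, 3 and 1 in the same order. Both sets were singled out because they hold Siglech UMIs without counting as pDCs, and 0.125% of T cells had a Siglech UMI. The type 1 gate held 52 cells with 2 or more Siglech UMIs, which were therefore on the type 1 side of the comparison above unless left out. Another 6 barcodes with 2 or more Siglech UMIs did not pass the cell filters, 2 in the control, 1 with 2DG, 1 with 2FF and 2 with anti-PD-L1.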

How the results depend on the processing

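The genes called were 1747 against type 2, 1422 against type 1 and 1951 against mature migratory cells. Without a filter on low counts they were 2327, 2220 and 3202, and with DESeq2 1553, 1280 and 1865. Leaving out 1 library each gave 1656 to 1731, 1351 to 1719 and 1957 to 2240. Without the library block the counts were 1765, 1421 and 1949. Without limits on Xcr1, Clec9a and the Cd3 genes the shares were 0.506% (2DG), 0.249% (2FF), 0.375% (anti-PD-L1) and 0.421% (2DG plus anti-PD-L1). With Siglech of at least 2 alone they were 0.532%, 0.282%, 0.4545% and 0.454%, and 0.269% with 2FF plus anti-PD-L1. The 90 genes past 2-fold between 2DG plus anti-PD-L1 and 2DG became 379 with at least 20 UMIs (49.1% of them up, against 67.8%), 4507 with no filter (48.4%) and 58 without pDCs of another gate or with 20 or more S100a8 and S100a9 UMIs (53.4%), where the S100a8 log2 ratio was -1.80 in place of 8.91. Of the other comparisons of a named gene with an alternative, 137 were newly called and 138 lost their call, none with a change of direction. Each treatment was 1 mouse, and 9 to 25 pDCs per library limit every value.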
